A study of Homo sapiens with 9 samples.

Results

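The interferon-induced transmembrane (IFITM) genes IFITM1, IFITM2, IFITM3 and IFITM10 are the 4 genes described here, of 23619 genes measured. They were selected by name, and IFITM1 was chosen because its level was low in every DIP2C knockout clone, so its difference from the parental cells is given as a description without a test. The other 3 genes were taken as its relatives and were not selected on their levels. IFITM proteins are small membrane proteins of the CD225 family. IFITM1, at the cell surface, and IFITM2 and IFITM3, mainly in endosomes, hinder the fusion of enveloped viruses with the cell, and all 3 are classical targets of interferon signalling. IFITM10 lies apart from them and its role is poorly known. Type I interferon acts through its receptor, the kinases JAK1 and TYK2 and a transcription factor complex that includes IRF9, which binds the interferon-stimulated response element (ISRE) in target promoters.

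RNA was sequenced from RKO, a human colorectal carcinoma cell line, after 48 h of growth, with no interferon or other agent named in the labels. There were 2 samples of parental RKO, 2 DIP2C-/- clones (E3 and C10) and 5 DIP2C+/- clones (A6-C9, A9-A12, F6-A7, G1-A5 and H9-A4). In the clones part of exon 9 of DIP2C had been removed with a recombinant adeno-associated virus vector, followed by drug selection and Cre excision of the marker. The labels give more DIP2C+/- clones than the study's text describes, and which of them it describes is not known. Each clone grew from a single cell and gave 1 library, the DIP2C-/- clones were made by targeting a DIP2C+/- clone again, and no clone that went through targeting with DIP2C intact was analysed, so the effect of the genotype and that of cloning cannot be told apart. Whether the 2 parental samples came from separate cultures is not given, so p-values measure the spread between these samples, which for the parental cells may be technical.

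The deposited estimated counts summed to 14772593 to 21486483 per sample, and 3 counts corresponded to 0.14 to 0.203 CPM, a gene's counts scaled to a common library total. DIP2C was at 60.98 and 70.87 CPM in the parental samples and 17.42 and 22.80 in DIP2C-/- clones. In DIP2C+/- it was 56.28 in H9-A4 and 33.65 to 46.97 in the other clones. Every clone was thus below both parental samples, in the direction of its label. The edgeR adjusted p of DIP2C was 0.132 for all clones, 0.0998 for DIP2C-/- and 0.386 for DIP2C+/-. Without H9-A4 these were 0.00216, 0.00103 and 0.0285. Clone H9-A4 stood apart. Its counts gave a chi-square of 100.2 to 117.7 per degree of freedom against each other DIP2C+/- clone, where those 4 gave 21.5 to 55.1 among themselves, and results that rest on it are given with and without it. Of the epithelial markers, KRT18 was at 120.9 to 293.4 CPM, whereas EPCAM and CDH1, which define many epithelial cells, were at most 3.79 and 0.698 CPM. The 9 markers of blood, endothelial and stromal cells summed to 5.18 and 6.95 CPM in the parental samples and to 3.45 to 8.53 CPM in the clones.

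IFITM1, IFITM2 and IFITM3 form a cluster at the end of the short arm of chromosome 11. In GRCh37, whose coordinates are those of hg19, IFITM2 lies at chr11:303655-309397 and IFITM1 at chr11:310041-315272, both on the plus strand, and IFITM3 at chr11:319676-329475 on the minus strand. IFITM10 lies further in, at chr11:1753636-1771825 on the minus strand. The main transcripts of the first 3 genes have 2 exons and that of IFITM10 has 3. The transcripts are alike in part, and 7.38% of the 100-base windows of IFITM1 also occur in IFITM3, against 0 for IFITM2. Of the shorter 50-base windows, 15.8% of those of IFITM1, 17.6% of those of IFITM3 and 5.33% of those of IFITM2 occur in another member. IFITM10 shares no such window with another member, but 26.7% of its 100-base windows occur in an annotated gene outside the family. A share of the reads of these genes could therefore have been assigned to another gene. Because the strand used in counting is not given in the sources used here, reads from antisense transcripts cannot be told apart.

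RefSeq promoter entries (GRCh38.p14) matched 2 of the 4 genes, IFITM1 and IFITM3. Both are shown from 120 bases before to 10 bases after the start of transcription, with the neighbouring relative IFITM5 for contrast. The promoters are shown because interferon acts on its targets through the ISRE. Whether they respond to interferon in these cells was not tested. IFITM1 is at chr11:313920-314049 (plus strand), IFITM3 at chr11:320851-320980 (minus strand) and IFITM5 at chr11:299517-299646 (minus strand). Capitals mark the ISRE core searched for, GAAANNGAA, on both strands.
IFITM1: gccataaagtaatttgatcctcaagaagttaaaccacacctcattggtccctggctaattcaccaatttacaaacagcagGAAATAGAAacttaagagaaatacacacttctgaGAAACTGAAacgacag
IFITM3: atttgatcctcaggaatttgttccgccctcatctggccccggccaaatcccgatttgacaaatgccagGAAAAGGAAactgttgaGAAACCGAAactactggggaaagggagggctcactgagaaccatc
IFITM5: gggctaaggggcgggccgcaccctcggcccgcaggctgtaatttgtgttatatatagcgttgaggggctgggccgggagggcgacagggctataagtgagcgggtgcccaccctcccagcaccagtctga

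IFITM1 and IFITM3 each held 2 matches to the ISRE core in the 300 bases searched, 250 before and 50 after the start, and IFITM5 held none. Of 35116 promoters of the same length, 8.11% held a match and 0.701% held 2 or more. In IFITM1 the first match began 40 bases before the start and the second 6 bases before it, running over the start itself. In IFITM3 the matches began 52 and 35 bases before the start. A second element, TTCNNNGAA (the gamma-activated site of interferon gamma signalling), was found once in IFITM1, overlapping the second ISRE match, and was not found in the IFITM3 window. It was held by 7.66% of all promoters. Aligned to each other, the sequences shown for IFITM1 and IFITM3 were identical at 58.0% of positions. Both promoters held the ISRE core, and the levels of the genes behind them follow.

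IFITM1 was present in both parental samples and nearly lost in all 7 clones. Its level was 8.98 and 11.85 CPM in the parental samples (210 and 204 reads, inferred here and below from the deposited estimated counts). In DIP2C-/- it was 0.387 CPM in E3 and 0.259 in C10, from 8 and 5 reads. In DIP2C+/- it was 1.07 CPM in A9-A12, 0.487 in F6-A7, 0.396 in H9-A4, 0.246 in G1-A5 and 0.153 in A6-C9, from 26, 9, 10, 6 and 3 reads. The groups did not overlap, and the highest clone, A9-A12, was still 8.36-fold below the lower parental sample. All 7 clones were below both parental samples for 5.54% of the 15532 genes tested, and among those genes IFITM1 ranked 7 by the size of this gap, between NNMT and ZFP82. As the gene was selected on this pattern, the rank is a description only. In bulk RNA, fewer cells with the transcript and less transcript per cell cannot be told apart.

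The group means for IFITM1 were 10.42 ± 2.03 CPM (SD, n = 2) in parental, 0.323 ± 0.0904 (n = 2) in DIP2C-/- and 0.471 ± 0.361 (n = 5) in DIP2C+/- samples. The mean over all 7 clones was 24.3-fold below the parental mean. Single clones ranged from 9.70-fold lower in A9-A12 to 68.0-fold lower in A6-C9. For A6-C9 the 3 inferred reads give a 95% interval of 23.3 to 329.8, from the counting error of that clone alone (exact Poisson). The fitted log2 fold change was -4.61 (SE 0.493) for all clones, -5.00 (SE 0.819) for DIP2C-/- and -4.45 (SE 0.549) for DIP2C+/-. IFITM1 was low in clones with 1 and in clones with 2 targeted alleles. The fitted log2 difference between the genotypes was 0.54 (95% interval -0.84 to 1.92), an interval that spans several fold. The gene was chosen for its low level in every clone, so both genotypes were low by selection. This difference is therefore also given as a description without a test.

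**Figure D1:**
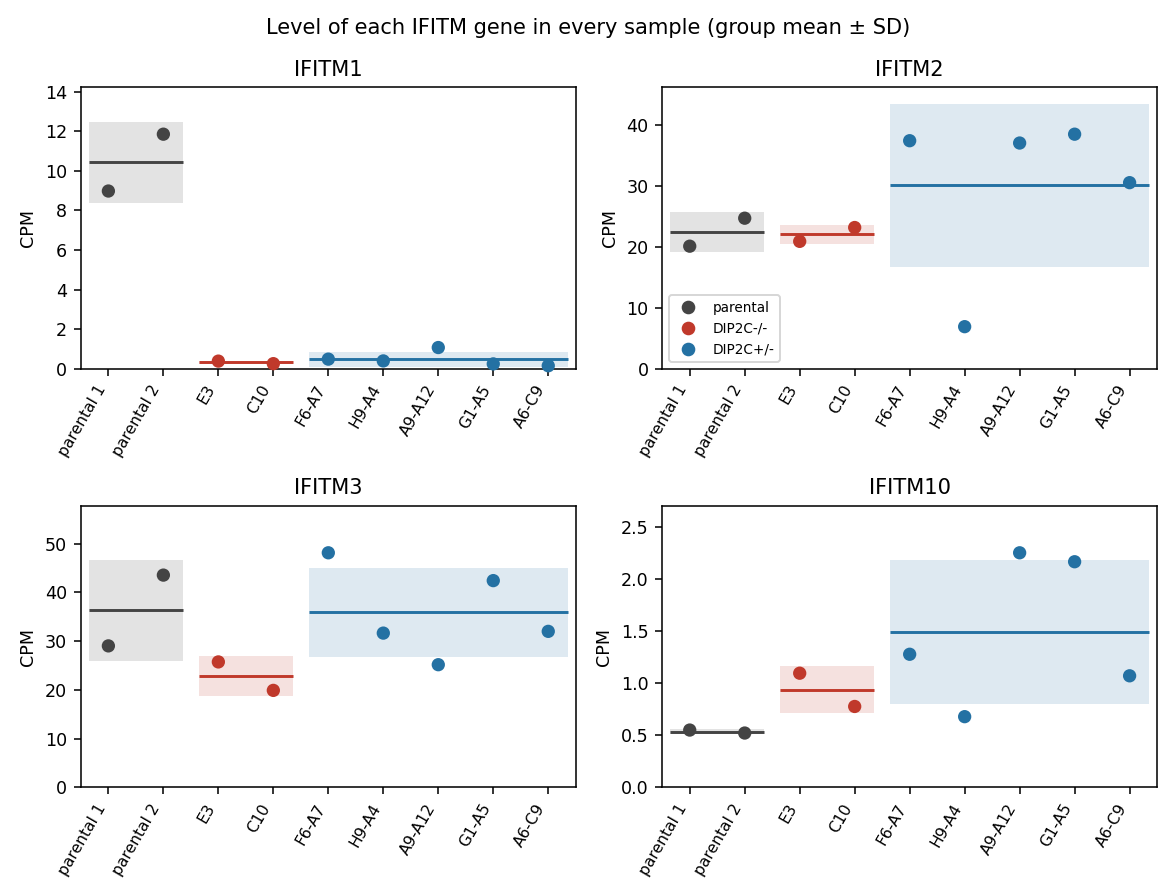
CPM of IFITM1, IFITM2, IFITM3 and IFITM10 in each of the 9 samples, on linear axes that start at 0; points are samples coloured by genotype, lines are group means and shaded bands the SD. IFITM1 lies at 8.98 and 11.85 CPM in the parental samples and at or below 1.07 CPM in every clone, while IFITM2 and IFITM3 stay at several CPM or more in all samples.

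IFITM2, which lies next to IFITM1 on the same strand, was detected at several CPM or more in every clone. It was at 20.11 and 24.70 CPM in the parental samples and at 20.90 and 23.17 CPM in DIP2C-/- clones E3 and C10. In DIP2C+/- it was 30.53 CPM in A6-C9, 37.03 in A9-A12, 37.41 in F6-A7 and 38.48 in G1-A5, all above both parental samples, but 6.91 in H9-A4, below all other samples. The fitted log2 difference from parental was 0.30 (SE 0.473, edgeR adjusted p = 0.839) for all clones, -0.02 (SE 0.58, adjusted p = 0.989) for DIP2C-/- and 0.42 (SE 0.494, adjusted p = 0.785) for DIP2C+/-. None of these passed the threshold, an adjusted p-value under 0.05. Across all genes 0.18% passed it for all clones, 0.00644% for DIP2C-/-, 0.0966% for DIP2C+/- and 0% between the genotypes.

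The result for IFITM2 in DIP2C+/- clones turned on H9-A4. Without that clone the mean was 35.86 ± 3.61 CPM (SD, n = 4), 1.60-fold above parental, and the log2 difference of 0.68 (SE 0.171) passed the threshold (edgeR adjusted p = 0.034). Leaving H9-A4 out also raised the share of all genes called, to 7.95% for DIP2C+/- and 8.95% for all clones, so that call was one of many. In DIP2C-/- the difference without H9-A4 was -0.02 (SE 0.193, adjusted p = 0.968). Between the genotypes it was 0.70 higher in DIP2C+/- (SE 0.171, adjusted p = 0.679).

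IFITM3, per length the highest of the family in the parental cells, varied between samples of the same genotype. It was 29.03 and 43.55 CPM in the parental samples, 25.74 in E3 and 19.90 in C10. The DIP2C+/- clones had 25.17 CPM in A9-A12, 31.65 in H9-A4, 32.01 in A6-C9, 42.42 in G1-A5 and 48.13 in F6-A7, and so overlapped with the parental samples. Both DIP2C-/- clones were below both parental samples, with a log2 difference of -0.67 (SE 0.317) that did not pass the threshold (edgeR adjusted p = 0.41). For DIP2C+/- the difference was -0.02 (SE 0.263, adjusted p = 0.988) and for all clones -0.20 (SE 0.249, adjusted p = 0.773, 95% interval -0.69 to 0.28). The value of IFITM1 lies outside the interval for all clones. As IFITM1 was chosen for its low level in the clones, this is a description only.

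IFITM10, outside the cluster, was low in all samples and higher in every clone than in both parental samples. It was 0.551 and 0.522 CPM in the parental samples, from 13 and 9 reads, and 1.10 and 0.777 CPM in E3 and C10. In DIP2C+/- it was 2.25 CPM in A9-A12, 2.17 in G1-A5, 1.28 in F6-A7, 1.07 in A6-C9 and 0.68 in H9-A4, from 17 to 53 reads. The groups did not overlap, a pattern shared by 5.41% of the genes tested. The log2 difference was 1.27 (SE 0.558) for all clones and did not pass the threshold (edgeR adjusted p = 0.361), nor did that of DIP2C-/- (0.79, adjusted p = 0.641) or DIP2C+/- (1.47, adjusted p = 0.402). The mean over the clones was 2.48-fold that of the parental samples, from few reads in each sample. Of the 100-base windows of its transcript, 26.7% also occur in another annotated gene, so some of these reads may not be from IFITM10.

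**Figure D2:**
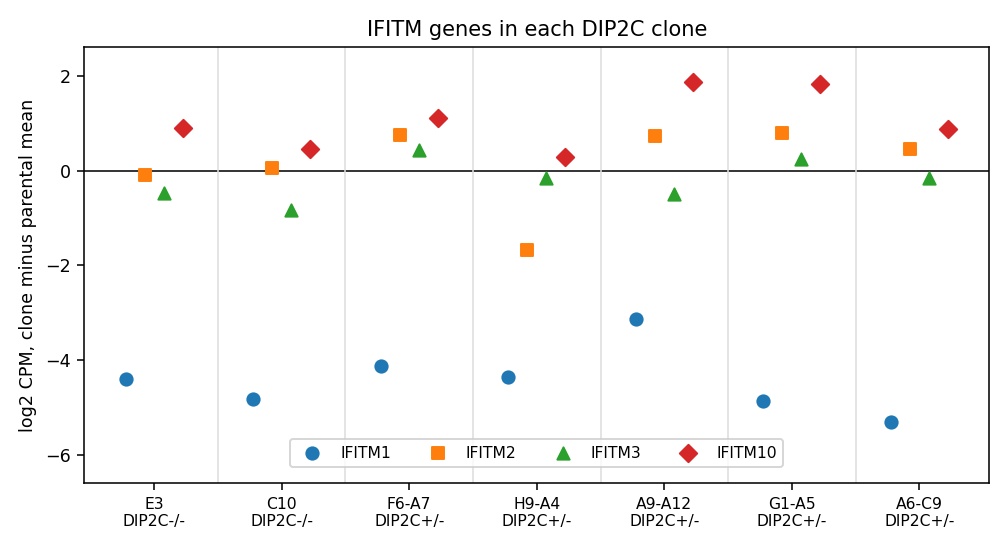
Difference in log2 CPM between each of the 7 clones and the mean of the parental samples (vertical axis) for the 4 IFITM genes, with clones and genotypes on the horizontal axis. IFITM1 lies between -5.31 and -3.14 in every clone, IFITM10 lies above 0 in every clone, and IFITM2 in H9-A4, at -1.67, lies apart from the other clones.

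Per kilobase of the main transcript, the order in the parental cells was IFITM3 (59.4 ± 16.8 CPM per kb, SD, n = 2), IFITM2 (22.27 ± 3.23), IFITM1 (15.59 ± 3.04) and IFITM10 (0.144 ± 0.00545). The 2 samples of each gene did not overlap with those of the next in this order. In the clones the order was IFITM3 (52.61 ± 16.4, n = 7), IFITM2 (27.61 ± 11.5), IFITM1 (0.642 ± 0.457) and IFITM10 (0.359 ± 0.171), in which IFITM3 overlapped with IFITM2 and IFITM1 with IFITM10. IFITM1 made up 15.4% and 14.8% of the CPM of the cluster's 3 genes in the parental samples and 0.231% to 1.73% in the clones. Per length, IFITM1 was at 1.61 in A9-A12 and 0.73 in F6-A7, above the highest IFITM10 value in the clones, 0.607, and the other 5 clones lay at or below that value.

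The ratio of IFITM3 to IFITM2 within a sample needs no scaling between samples. It was 1.44 and 1.76 in the parental samples, 1.23 and 0.858 in E3 and C10, and 0.68 in A9-A12, 1.05 in A6-C9, 1.10 in G1-A5, 1.29 in F6-A7 and 4.60 in H9-A4. All clones other than H9-A4 were below both parental samples. The mean log2 ratio differed by -0.35 between clones and parental samples (two-sided exact permutation test, p = 0.5, smallest possible 0.0556), and by -0.66 without H9-A4 (exact permutation p = 0.0714, the smallest that 6 against 2 samples allow).

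Over the 9 samples, IFITM1 and IFITM2 correlated with r = -0.05 and IFITM1 and IFITM3 with r = 0.19 (Pearson, log2 CPM), given as descriptions since the samples share genotypes. The highest value within the family was r = 0.62 for IFITM2 and IFITM10. The 10 genes most like IFITM1 among 4897 compared were KCNQ5 (r = 0.961), LINC00326, ZFP82, NHS, MIR100HG, TNS4, ZNF471, SLC23A2, ZNF569 and FAM49A (r = 0.927). TNS4, a focal adhesion protein, was at 166.2 and 178.3 CPM in the parental samples and at most 1.19 in the clones. In all 10 genes every clone was below both parental samples, a pattern held by 5.54% of all genes tested. This follows from choosing IFITM1 for its low level in every clone and these genes for their correlation with it. By rank correlation 0 of the 10 stayed in this list. PRDM8, MLLT11, BCAN, S100A16 and SHKBP1 were most like IFITM2 (r = 0.941 to 0.925). In all 5, as in IFITM2, H9-A4 was the lowest clone, which a choice by correlation with IFITM2 favours. S100A16 was at 0.0566 CPM there. PROZ, HIST1H4I, PTPN6 and KLK9 were among the genes most like IFITM3 (r = 0.841 to 0.815), and RINL, RHPN1-AS1, ART4, FDFT1 and PTK6 were most like IFITM10 (r = 0.941 to 0.911).

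None of the genes around IFITM1 was called as changed when all 9 samples were used. Of 19 other genes within 250 kb, 17 could be tested and 0 were called by edgeR in any comparison. Across all 15532 genes, edgeR called 28 for all clones, 1 for DIP2C-/-, 15 for DIP2C+/- and 0 between the genotypes. The 0 of 17 thus does not set the neighbours apart. In the same order, 0, 2, 1 and 3 of the 17 had an unadjusted edgeR p under 0.05. Over all genes 2079, 1970, 1796 and 865 did. DESeq2 also called 0 of the 17 in each comparison, where it called 304, 295, 191 and 6 genes in all. The median log2 difference of the 17 genes for all clones was 0.15, against 0.02 for all genes tested. For DIP2C-/- it was -0.20, with 13 of 17 below 0, and for DIP2C+/- 0.25, with 11 above 0. Between the genotypes all 17 were higher in DIP2C+/-, with a median of 0.40 against 0.0092 for all genes, and 0 of them passed the threshold. On the IFITM2 side the nearest were IFITM5, a bone-specific relative listed at 0 in 5 of the 9 samples and at no more than 0.443 CPM, ATHL1 (0.56, SE 0.32) and the inflammasome gene NLRP6 (0.27). On the IFITM3 side they were the glycosyltransferase gene B4GALNT4 (-0.13, SE 0.21), PKP3 and SIGIRR (0.65, SE 0.337).

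PKP3, which encodes the desmosomal protein plakophilin 3, was at 99.15 and 102.2 CPM in the parental samples and at 22.32 and 29.59 in E3 and C10. It was 62.08 CPM in G1-A5, 37.41 in F6-A7, 29.00 in A6-C9 and 59.90 in A9-A12, but 145.3 in H9-A4. Only H9-A4 was above the parental samples. Without H9-A4, for all clones, PKP3 was lower (log2 -1.38, edgeR adjusted p = 0.00524). ATHL1 (0.67, adjusted p = 0.0466) and SIGIRR (0.77, adjusted p = 0.0308) were higher, 3 of 17 genes where 8.95% of all genes were called. For DIP2C+/- without H9-A4, 4 of the 17 were called, where 7.95% of all genes were. These were the same genes and BET1L (0.51, edgeR adjusted p = 0.0401). Of 19 genes within 250 kb of IFITM10, 6 could be tested and 0 were called by edgeR for all clones, with 0 at an unadjusted p under 0.05. Of all 15532 genes tested, 28 were called and 2079 had an unadjusted edgeR p under 0.05. The nearest measured at length was CTSD, the lysosomal protease cathepsin D, at 225.8 and 236.8 CPM in the parental samples and 164.4 to 309.9 in the clones. The others nearest to IFITM10, KRTAP5-6, FAM99B, FAM99A, SYT8 and TNNI2, were at no more than 0.227 CPM in any clone.

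Interferon genes were examined next, since the cluster is a target of interferon. Of the ligands, 8 were in the files and 0 had enough reads to be tested, and their summed level was 0.496 and 0.522 CPM in the parental samples and 0.207 to 0.975 in the clones. IFNK, IFNG and IFNE had the highest means. Of the receptors and signalling genes, 18 could be tested and 0 were called by edgeR for all clones. Their median log2 difference was 0.16, and 4 had an unadjusted edgeR p under 0.05. Of all 15532 genes tested, 28 (0.18%) were called and 2079 had an unadjusted p under 0.05. The kinase gene JAK1 (0.22, SE 0.174) and the receptor gene IFNAR1 (0.02, SE 0.159) had the highest levels. DESeq2, which called 2.28% of all genes for all clones and 2.26% for DIP2C-/-, called 0 of the 18 for all clones and 1 for DIP2C-/-. This was IFNLR1, the interferon lambda receptor, named after its values were seen, at 28.64 and 23.92 CPM in the parental samples and 8.71 and 12.49 in E3 and C10 (edgeR log2 -1.31, SE 0.368, adjusted p = 0.313).

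Of 43 interferon-stimulated genes other than the IFITM genes, 38 could be tested and 0 were called by edgeR for all clones, with 5 at an unadjusted p under 0.05. Of all 15532 genes tested, 28 were called and 2079 had such a p, so these counts do not set the list apart. The median log2 difference of the 38 genes was 0.09, with 21 above 0 and 17 below. DESeq2 called 0 of them for all clones and 1, OAS3, for DIP2C-/-. The RNA-editing enzyme gene ADAR (0.15), the tetherin gene BST2 (0.16) and the ubiquitin ligase gene TRIM25 (0.02) had the highest levels. MX1, named after its values were seen as a widely used marker of the response, was at 80.26 and 72.54 CPM in the parental samples and 61.73 to 87.67 in the clones, and ISG15, named likewise, at 58.72 and 65.70 and at 55.14 to 101.1. For MX1 and ISG15 the clones overlapped with the parental samples, but this does not hold for the whole list. IFIT1, also named after its values were seen, was at 1.87 and 1.88 CPM in the parental samples and 0.674 to 1.47 in the clones. All 7 clones were below both parental samples for 5.54% of all genes tested. Without H9-A4, 6 of the 56 tested genes of both groups were called, where 8.95% of all genes were. Among them IL10RB, IFI16 and IFI35 were higher and OAS3 and CMPK2 lower.

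IFI16, a DNA sensor and the largest of these, was at 19.28 and 23.40 CPM in the parental samples, 111.9 to 240.6 in 6 clones and 0.340 in H9-A4, with a log2 difference of 3.17 without that clone (edgeR adjusted p = 7.02e-05). OAS3, an antiviral enzyme that makes 2-5A, fell without H9-A4 (log2 -1.14, edgeR adjusted p = 0.036) from 106.9 and 105.8 CPM to 32.39 to 87.22 in the clones. Without H9-A4, 2 of the 38 tested interferon-stimulated genes were called higher and 2 lower. Over all genes 8.95% were called, 690 higher and 688 lower.

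The last lists hold genes around the IFITM proteins. For all clones, edgeR called 28 of all 15532 genes, and 2079 had an unadjusted p under 0.05. Of the relatives that share the CD225 domain, PRRT1, PRRT2 and TMEM91 could be tested. Among these 3, 0 were called by edgeR for all clones, with 2 at an unadjusted p under 0.05. PRRT2 had the largest difference (log2 -2.04, SE 0.429, adjusted p = 0.141), at 1.71 and 1.10 CPM in the parental samples and 0.183 to 0.453 in the clones. Of the partners and modifying enzymes, 10 could be tested and 0 were called by edgeR for all clones, with 2 at an unadjusted p under 0.05. DESeq2, which called 2.28% of all genes for all clones, called 1 of the 10, ZMPSTE24. The tetraspanin genes CD81 (-0.12, SE 0.119) and CD9 (0.25, SE 0.232) and the methyltransferase gene SETD7 (-0.02, SE 0.123) had the highest levels. Without H9-A4, where 8.95% of all genes were called, 2 of these 10 genes and 1 of the 3 relatives were. ZMPSTE24, a metalloprotease that binds IFITM proteins (log2 -0.92, adjusted p = 0.0119), CAV1, the caveolin of membrane pits (-3.66, adjusted p = 0.00192), and PRRT2 (-2.12, adjusted p = 0.0192) were lower. Other genes that restrict viral entry, BST2, LY6E (0.04, SE 0.118) and NCOA7 (-0.01, SE 0.189), were not called.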

How the data were processed

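RNA sequencing of 9 RKO samples was analysed. Per the labels and the study's methods, the authors used Ion Proton sequencing and aligned reads to hg19 with TopHat2 2.0.4. Cufflinks was used for quantification (version 2.2.1 in the submitters' processing notes). The deposited estimated counts were mostly whole multiples of 1 step per sample (98.3% to 98.7% of values under 20 whole multiples, tolerance 0.02). The read numbers in the text are the counts divided by that step, taken as the value of 1 read, an inference that the sources do not state. For the fit, the undivided counts were rounded to whole numbers. Genes kept by filterByExpr (15532) were scaled by TMM and fitted in edgeR 4.0.16 (R 4.3.3) with 1 coefficient per genotype, and tested by the quasi-likelihood F test with Benjamini-Hochberg adjustment. The contrast of all clones weighted each clone equally. CPM are on TMM-scaled libraries and log2 CPM has a prior count of 2. The fit was also run on simulated counts, for the contrast of all clones only. No clone was simulated to stand apart as H9-A4 did, so that run does not check the fit for such a clone. The common biological coefficient of variation was 0.2975. Intervals of fitted differences are 1.96 SE on each side and hold the spread between samples, while the Poisson interval and the floors cover counting error only.

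The members, lists and tests were chosen with earlier results of these data known. Named genes were the members, the 3 nearest measured neighbours on each side of IFITM1 and IFITM10, list genes that were called or else the 3 with the highest mean CPM, and the 10 (IFITM1) or 5 genes with the highest Pearson correlation among those with an SD of at least 0.5. Positions are from GENCODE on GRCh37, which placed 93.3% of the gene symbols. DESeq2 1.42.0, other scalings, other filters and leaving out samples were tried. Python 3.11.15, pandas 2.3.3 and scipy 1.17.1 were used. Some genes that the rule names are not reported here.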

Additional observations from a re-analysis of the deposited data

Results flagged for a closer look

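In the 5 DIP2C+/- clones, 4 of 28 genes examined had 1 clone far from the others by Dixon's test on CPM. The test marks about 1 in 20 groups by chance only where values are normally distributed and groups are independent. CPM was not transformed and the genes share the same 5 clones, so the count is a description only. IFITM2 was at 6.908 CPM in H9-A4 against 30.53 to 38.48 in the other DIP2C+/- clones. PKP3 was at 145.3 CPM in H9-A4 against 29.00 to 62.08, and ANO9 at 13.02 CPM in H9-A4 against 0.246 to 2.31. ODF3 was at 11.94 CPM in F6-A7 against 0.283 to 2.74. Of these 4 genes, 3 were set apart by H9-A4, the clone that also differed most from the others over all genes.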

How the results depend on the processing

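The log2 difference of IFITM1 from the parental samples stayed between -5.28 and -4.10 in the comparisons and alternatives run. Without A9-A12 (DIP2C+/- replicate 3) that of DIP2C+/- moved to -5.01, and leaving out each sample in turn gave -5.01 to -4.22. The difference of IFITM1 between the genotypes ranged from -0.016, reversed without A9-A12, to 0.833 when 1 sample was left out. For IFITM3 such ranges were -0.472 to 0.118 for all clones, with the reversal without the second parental sample, and -0.28 to 0.311 for DIP2C+/-, reversed without that sample (0.311), H9-A4 (0.0247), A9-A12 (0.088) or A6-C9 (0.0227). Without H9-A4 and A6-C9 together IFITM3 in DIP2C+/- was at 0.088. IFITM2 in DIP2C-/- ranged from -0.179 to 0.121, reversed without the second parental sample (0.121) or E3 (0.0632), and in DIP2C+/- it passed the threshold at 0.75 without H9-A4 and A6-C9 (edgeR adjusted p = 0.0318). Over its alternatives the adjusted p of IFITM2 in DIP2C+/- ran from 0.0318 to 0.968.

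The counts of genes called for all clones, DIP2C-/-, DIP2C+/- and between the genotypes were 28, 1, 15 and 0. They were 304, 295, 191 and 6 with DESeq2. With at least 10 counts in every sample the first 3 were 11, 0 and 8. With only the compared groups they were 1807 for DIP2C-/-, 8 for DIP2C+/- and 1 between the genotypes, with no filter 3 for DIP2C-/-, and without H9-A4 and A6-C9 1107, 768 and 874. Leaving out 1 sample gave 1 to 1378 for all clones, 1 to 733 for DIP2C-/-, 1 to 1224 for DIP2C+/- and 0 to 3 between the genotypes, with the highest counts of the first 3 without H9-A4 and the lowest for all clones without the first parental sample. For all clones, the count for neighbours of IFITM1 ran from 0 to 3 when 1 sample was left out. That for the interferon lists ran from 0 to 6. Without H9-A4 and A6-C9 these counts were 1 and 6. For DIP2C+/- without H9-A4 alone they were 4 and 6. DESeq2 called 0 neighbours. The causes were not tested. Under rank correlation, 0, 0, 3 and 1 of the genes most like IFITM1, IFITM2, IFITM3 and IFITM10 remained. IFITM1 in the clones rested on 3 to 26 reads, which limits any order among them.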
